A study of Mus musculus with 3 samples.

Results

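The metabotropic serotonin receptors are the G-protein-coupled receptors for serotonin, and 10 of their genes, chosen by symbol from 32531 gene symbols with counts, are described here: Htr1a, Htr1b, Htr1d, Htr1f, Htr2a, Htr2c, Htr4, Htr5a, Htr6 and Htr7. They were measured in ribosome-bound RNA from whole cerebral cortex of adult mice of the cross Htr3a-Cre (NO176)::Rosa26-LSL-EGFP/Rpl10a. In this cross Cre is driven by regulatory sequence of Htr3a, a subunit of the ionotropic serotonin receptor, and removes a stop cassette at Rosa26, so that a fusion of EGFP with the ribosomal protein Rpl10a is made in each cell that has expressed Cre at any time. The tagged polysomes were pulled down with anti-EGFP antibodies (translating ribosome affinity purification, TRAP). The data form 1 group of 3 immunopurified libraries, replicates 1, 2 and 3, and unpurified cortex was not analysed here, so each comparison is between genes of the same library. Whether the replicates are separate animals is not stated in the labels, and p-values cover only the spread of these samples, which could be technical.

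Serotonin reaches the cortex through axons of the raphe nuclei, and its metabotropic receptors are grouped by the G protein they engage. Receptors of the Gi/o class (Htr1a, Htr1b, Htr1d, Htr1f and Htr5a here) lower cyclic AMP and can open inwardly rectifying potassium channels. Those of the Gq/11 class (Htr2a and Htr2c) act through phospholipase C beta and calcium, and those of the Gs class (Htr4, Htr6 and Htr7) raise cyclic AMP. Cortical interneurons marked by Htr3a arise in the caudal ganglionic eminence and are known for their fast response to serotonin through the ionotropic receptor.

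The coding sequences around the Asp-Arg-Tyr motif are shown because the motif, at the inner end of the third membrane helix, is the part of these receptors that faces the G protein, and because the likeness of neighbouring genes bears on whether their reads can be told apart. The windows are 51 bases long, 5′ to 3′, from the GENCODE M21 transcripts (GRCm38), and capitals mark the codons of the motif, which occurred once in the coding sequence of each of the 10 genes. Shown are the 5 genes with the highest levels and the pair with the most similar proteins.
Htr5a: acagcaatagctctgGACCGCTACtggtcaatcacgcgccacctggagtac
Htr2a: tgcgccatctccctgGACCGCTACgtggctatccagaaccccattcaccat
Htr2c: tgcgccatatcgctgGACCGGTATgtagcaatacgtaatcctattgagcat
Htr7: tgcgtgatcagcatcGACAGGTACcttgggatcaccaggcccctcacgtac
Htr1a: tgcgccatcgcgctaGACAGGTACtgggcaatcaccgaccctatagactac
Htr1d: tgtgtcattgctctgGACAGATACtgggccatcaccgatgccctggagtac
Htr1b: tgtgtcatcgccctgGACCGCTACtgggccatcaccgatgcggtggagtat
The windows lie at chr5:27842845-27842895 (plus strand) for Htr5a, chr14:74645074-74645124 (plus) for Htr2a, chrX:147169656-147169706 (plus) for Htr2c, chr13:105444635-105444685 (plus) for Htr1a, chr4:136442840-136442890 (plus) for Htr1d and chr9:81632094-81632144 (minus) for Htr1b. The window of Htr7 joins 2 exons of the minus strand of chromosome 19. Translated and aligned, Htr1b and Htr1d shared 61.9% of residues and Htr2a and Htr2c 59.0%. The 14 pairs of receptors of the same class had a median identity of 43.2% (range 36.3% to 61.9%), against 36.9% (32.7% to 44.2%) for the 31 pairs across classes. The window of Htr2c overlaps the stretch within which several adenosines of its messenger RNA are known to be edited, in capitals below. The whole line, with 3 codons on each side of the capitals, lies at chrX:147169677-147169709 (plus strand). Editing cannot be read from counts.
Htr2c edited stretch: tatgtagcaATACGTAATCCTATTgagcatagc

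Gene counts summed to between 13951332 and 14461053 per library. GABAergic neuron markers were present, with 6 of 6 genes at 1 TPM or more in 3 of 3 libraries and a summed level of 3122 to 3316 TPM. Markers of excitatory neurons were also present, with 9 of 10 at that level and a sum of 668 to 756 TPM. Markers of interneurons from the medial ganglionic eminence (MGE), which are not the class named for Htr3a, were at 1 TPM or more for 5 of 5 genes and summed to 7905 to 8931 TPM, most of it the neuropeptide gene Sst at 8247 ± 551 TPM. Markers of the Htr3a class (7 of 7) summed to 2675 to 3542 TPM. In bulk RNA, fewer cells of a type and less RNA per cell cannot be told apart, and the receptor levels below are those of the whole captured pool. Levels are given in TPM, a length-corrected share of the counts based on the merged exons of each gene, and errors written with ± are SDs of the 3 libraries (n = 3).

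Ribosome-bound RNA of the cortical cells was dominated, among these receptors, by Htr5a at 121 ± 28.7 TPM, followed by Htr2a at 33.2 ± 2.80 TPM and Htr2c at 31.1 ± 2.44 TPM. Htr7 and Htr1a stood near 12 TPM, and Htr1f, Htr4, Htr1d and Htr1b between 5.82 and 2.39 TPM. Htr6 was near the limit of detection. At least 1 TPM in 3 of 3 libraries was reached by 9 of the 10 receptors, all but Htr6, beside 50.9% of all genes with a length and 57.6% of the protein-coding ones. At 5 TPM the number was 6 of 10, beside 40.03% of all genes with a length and 45.8% of the protein-coding ones. The median of the 14314 genes with at least 10 counts was 16.5 ± 1.12 TPM, so that Htr5a, Htr2a and Htr2c stood above it and the other 7 below. Summed counts of the 10 receptors were 4054, 3265 and 3476 in replicates 1, 2 and 3, or 258, 205 and 212 TPM.

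**Figure D1:**
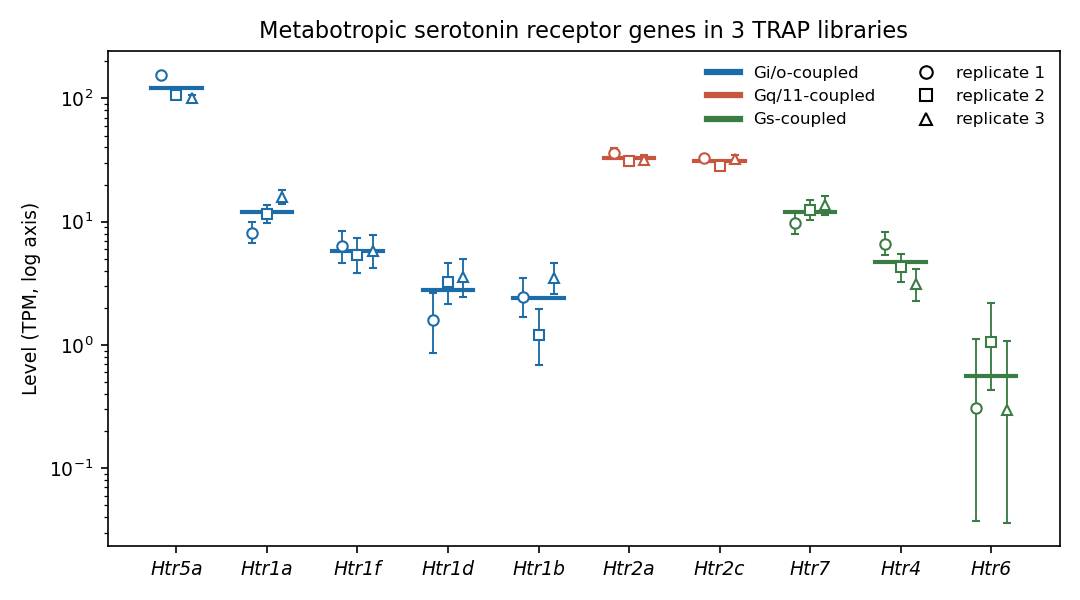
Level of each receptor gene (TPM, log axis) in 3 libraries. Open symbols are replicates with exact 95% Poisson intervals of their counts, and horizontal bars are means over the 3 libraries. Htr5a stands highest with a mean of 121 TPM, and the intervals of Htr6 reach below 0.1 TPM.

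Of the Gi/o-coupled receptors, Htr5a, whose product is one of the least studied serotonin receptors, had 154, 107 and 102 TPM in replicates 1, 2 and 3. Its counts were 2277, 1613 and 1579, and the level of replicate 1 lay apart from the other two. Its mean stood at percentile 87.9 of the genes with at least 10 counts, and 9.41% of those genes were above it by the adjusted p of limma. Htr5a lies at chr5:27842149-27855088 on the plus strand, with 2 coding exons.

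Htr1a, the inhibitory receptor that also serves as autoreceptor on raphe cell bodies, had 8.17, 11.6 and 15.9 TPM (11.9 ± 3.87), with counts of 101, 147 and 206. Its order over the libraries was the opposite of that of Htr5a, with replicate 3 highest and replicate 1 lowest. Htr1f, a receptor targeted by a class of migraine drugs, had 6.33, 5.37 and 5.77 TPM (5.82 ± 0.480) from 45, 39 and 43 counts, and its libraries lay within one another's counting intervals. Htr1d, known from presynaptic terminals, had 1.59, 3.22 and 3.57 TPM (2.79 ± 1.06) from 14, 29 and 33 counts.

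Htr1b, the terminal autoreceptor of serotonin axons, had 2.46, 1.20 and 3.52 TPM (2.39 ± 1.16) from 32, 16 and 48 counts. The exons of Htr1b are overlapped over 18.04% of their length by the antisense gene D430036J16Rik, which had 21, 23 and 25 counts. No source used here gives the strand setting of the counting, and reads of the 2 genes in the shared stretch cannot be told apart. Htr1a, Htr1b, Htr1d and Htr1f each have 1 coding exon, and their genes lie at chr13:105443639-105448122 (plus), chr9:81628291-81633828 (minus), chr4:136423524-136444398 (plus) and chr16:64924729-65105854 (minus). Htr5a was 10.2-fold above Htr1a, the next receptor of its class (log2 difference 3.36, SD 0.79, limma adjusted p = 2.70e-09, 3 of 3 libraries).

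Of the Gq/11-coupled receptors, Htr2a, the receptor through which serotonergic psychedelics act, had 36.4, 31.2 and 31.9 TPM from 562, 493 and 516 counts. Htr2c, which is known for its abundance in the choroid plexus and for RNA editing, had 32.6, 28.3 and 32.3 TPM from 839, 742 and 871 counts. Both genes varied little, the highest library being 1.16 times the lowest for Htr2a and 1.15 times for Htr2c. Htr2a lies at chr14:74640840-74709494 and Htr2c at chrX:146962513-147197277, both on the plus strand, with 3 and 4 coding exons. The log2 difference of Htr2a minus Htr2c was 0.09 (SD 0.10), with Htr2a higher in 2 of 3 libraries (limma adjusted p = 0.599). That order depended on the length taken for Htr2c, as described with the gene lengths below. Choroid plexus markers were low beside Htr2c, with sums from 3.36 to 5.95 TPM. Of the 8 markers, 0 reached 1 TPM in 3 of 3 libraries, beside 50.9% of all genes with a length. Folr1 and Otx2 had 0 counts in each library and Ttr had 0, 0 and 2. The highest were Kl (0.972, 1.83 and 1.41 TPM), Kcnj13 (3.43, 0.559 and 0 TPM) and Prlr (0.993, 1.53 and 1.06 TPM). Whether choroid plexus contributed to the counts of Htr2c was not tested.

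Of the Gs-coupled receptors, Htr7, known in thalamus and hippocampus and as a regulator of circadian timing, had 9.82, 12.5 and 13.6 TPM (12 ± 1.97) from 92, 120 and 134 counts. Htr4, a receptor best known for raising neuronal excitability and gut motility, had 6.65, 4.27 and 3.10 TPM (4.67 ± 1.81) from 90, 59 and 44 counts. The 2 genes had opposite orders over the libraries, Htr7 being highest in replicate 3 and Htr4 in replicate 1. Htr7 exceeded Htr4 2.63-fold (log2 difference 1.40, SD 0.78, limma adjusted p = 7.59e-04, 3 of 3 libraries), which was lost without moderation of the spread (adjusted p = 0.112) and with coding length (log2 difference 0.67, adjusted p = 0.0692).

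Htr6, a receptor known from striatum and hippocampus, had 2, 7 and 2 counts. These correspond to 0.310 TPM (exact 95% Poisson interval 0.0375 to 1.12), 1.06 TPM (0.427 to 2.19) and 0.296 TPM (0.0358 to 1.07), where a count of 0 would allow up to 0.465, 0.455 and 0.444 TPM. Htr6 thus had counts in each library, but 2 of the 3 values lay below that limit. These intervals cover counting error only. The gene lies at chr4:139061108-139075570 and Htr7 at chr19:35958734-36057507, both on the minus strand and with 3 coding exons each, and Htr4 has 6 coding exons.

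Summed by coupling class, the Gi/o receptors gave 172, 128 and 130.4 TPM in replicates 1, 2 and 3, the Gq/11 receptors 69.0, 59.5 and 64.2 TPM, and the Gs receptors 16.8, 17.9 and 17.04 TPM. The order Gi/o, Gq/11, Gs was the same in each library and the sums did not overlap. The shares of the summed level were 63.6 ± 2.78% for Gi/o, 28.7 ± 1.81% for Gq/11 and 7.75 ± 1.13% for Gs. The log2 difference was 1.15 (SD 0.15) for Gi/o minus Gq/11, 3.05 (SD 0.28) for Gi/o minus Gs and 1.90 (SD 0.15) for Gq/11 minus Gs, positive in 3 of 3 libraries each. No test was applied to these sums, since the genes were chosen with results of these data known.

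The Gi/o share rested on Htr5a, which alone held 53.2 ± 5.87% of the summed level of the 10 receptors. Without Htr5a, the Gi/o sum was 18.5, 21.4 and 28.8 TPM (22.9 ± 5.26), and Gi/o minus Gq/11 turned to a log2 difference of -1.51. With the class median in place of the sum it was -2.46, from a Gi/o median of 5.82 ± 0.480 TPM and a Gq/11 median of 32.1 ± 2.37 TPM. By median, Gi/o minus Gs was 0.38. Among the 10 receptors, levels were thus spread widely within the Gi/o class, from Htr5a to Htr1b. They were also spread widely within the Gs class, from Htr7 to Htr6. Htr2a and Htr2c, the only listed Gq/11 genes, lay close together with merged exons. With other gene lengths and with no length correction, Htr2a minus Htr2c was between -0.84 and -0.64 on the log2 scale. Their closeness also depends on the list, since Htr2b, the remaining Gq/11-coupled receptor, was not among the 10 and had 0, 4 and 0 counts.

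**Figure D2:**
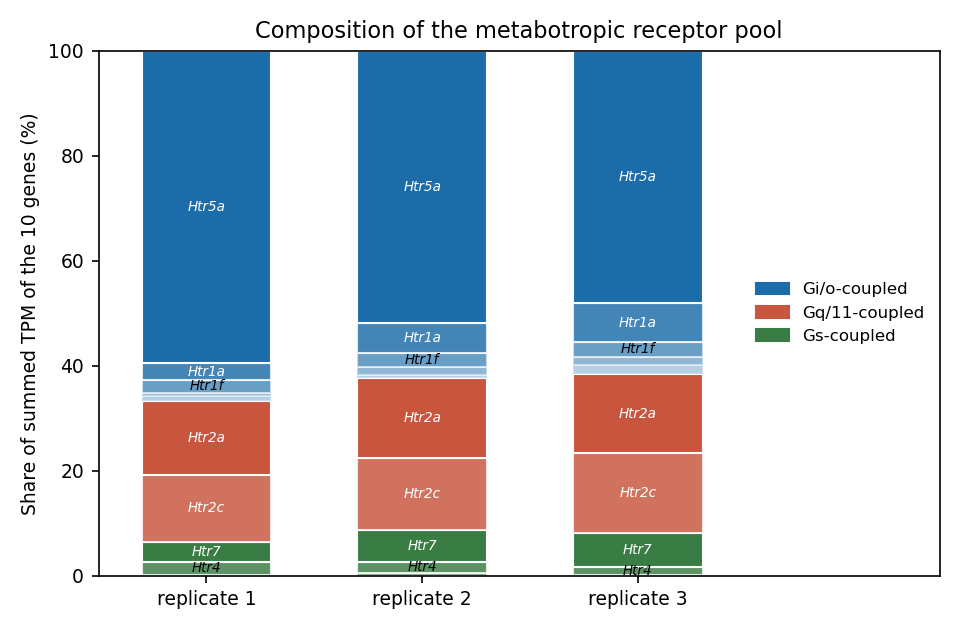
Share of the summed TPM of the 10 receptor genes (%, linear axis) in each library, stacked by gene and coloured by coupling class. Htr5a takes between 48.0 and 59.6% in the 3 libraries. Slices of Htr1d, Htr1b and Htr6 are too thin to carry their names.

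Ranked by mean TPM, the receptors ran Htr5a, Htr2a, Htr2c, Htr7, Htr1a, Htr1f, Htr4, Htr1d, Htr1b and Htr6. Differences of log2(TPM + 0.1) within libraries were tested against 0 with limma for every gene with at least 10 counts against each receptor and Htr3a. The p-values were adjusted over all 157443 differences. They rest on a spread moderated over these differences, so a p-value does not follow from the SD beside it. Of the 45 receptor pairs, 40 (88.9%) had an adjusted p under 0.05, beside 86.3% of all differences in that fit, and 39 had the same direction in 3 of 3 libraries. The share is close to that of genes in general. Within classes 12 of 14 pairs passed, and between classes 28 of 31.

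Of the 9 pairs of neighbours in the ranking, 4 passed. Htr5a exceeded Htr2a 3.58-fold (log2 difference 1.84, SD 0.21, limma adjusted p = 1.14e-08, 3 of 3 libraries). Its call against each of the other 9 receptors held under each alternative in which that pair could be fitted. With the other lengths and by CPM, however, Htr2c and not Htr2a was next below Htr5a. The log2 difference of Htr5a minus Htr2c was 1.93 with merged exons. It was smaller under each of those settings, down to 0.999 with the principal transcript. Htr2c exceeded Htr7 2.59-fold (log2 difference 1.38, SD 0.30, adjusted p = 6.47e-05, 3 of 3 libraries), a difference that was larger, between 2.15 and 2.82, with the other lengths and by CPM. Htr1a exceeded Htr1f (log2 difference 0.97, SD 0.55, adjusted p = 0.0144, 3 of 3 libraries), but not without replicate 2 (adjusted p = 0.134), replicate 3 (0.155) or moderation (0.115); by CPM the difference was 1.75. Htr1b exceeded Htr6 (log2 difference 2.0, SD 1.61, adjusted p = 0.0300, 3 of 3 libraries), but not without replicate 1 (0.208), replicate 3 (0.239), moderation (0.190) or the filter on counts (0.0509).

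Besides Htr2a and Htr2c, 4 pairs of neighbours did not differ beyond their spread. Htr7 minus Htr1a was 0.05 on the log2 scale (SD 0.25, limma adjusted p = 0.856), Htr1f minus Htr4 0.38 (SD 0.47, adjusted p = 0.306), Htr4 minus Htr1d 0.73 (SD 1.14, adjusted p = 0.136) and Htr1d minus Htr1b 0.26 (SD 0.996, adjusted p = 0.588), each positive in 2 of 3 libraries. Htr4 minus Htr1d passed, however, by CPM (1.32, adjusted p = 0.0102) and with coding length (1.27, adjusted p = 0.0137). Htr4 minus Htr1b passed at 0.99 (adjusted p = 0.0352), although its SD was 1.02 and 1 of 3 libraries went the other way. That call was lost without replicate 1 (adjusted p = 0.0622), replicate 2 (0.342), the filter on counts (0.0777), the trend (0.0958) or moderation (0.263), and at a minimum of 1 CPM (0.0525). By neighbouring pairs with merged exons, the levels fell into Htr5a, then Htr2a with Htr2c, then Htr7 with Htr1a, then a low range of Htr1f, Htr4, Htr1d and Htr1b, and Htr6. Genes grouped here did not pass against their neighbour, which does not make their levels equal. Htr2a and Htr2c separated with the other lengths and by CPM. The borders between Htr1a and Htr1f and between Htr1b and Htr6 were lost in the alternatives given above. Within the low range, Htr1f exceeded Htr1d (log2 difference 1.11, limma adjusted p = 0.0194) and Htr1b (1.37, adjusted p = 0.00354), each in 3 of 3 libraries. Both calls were lost by CPM, with coding length, without moderation and without replicate 2.

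**Figure D3:**
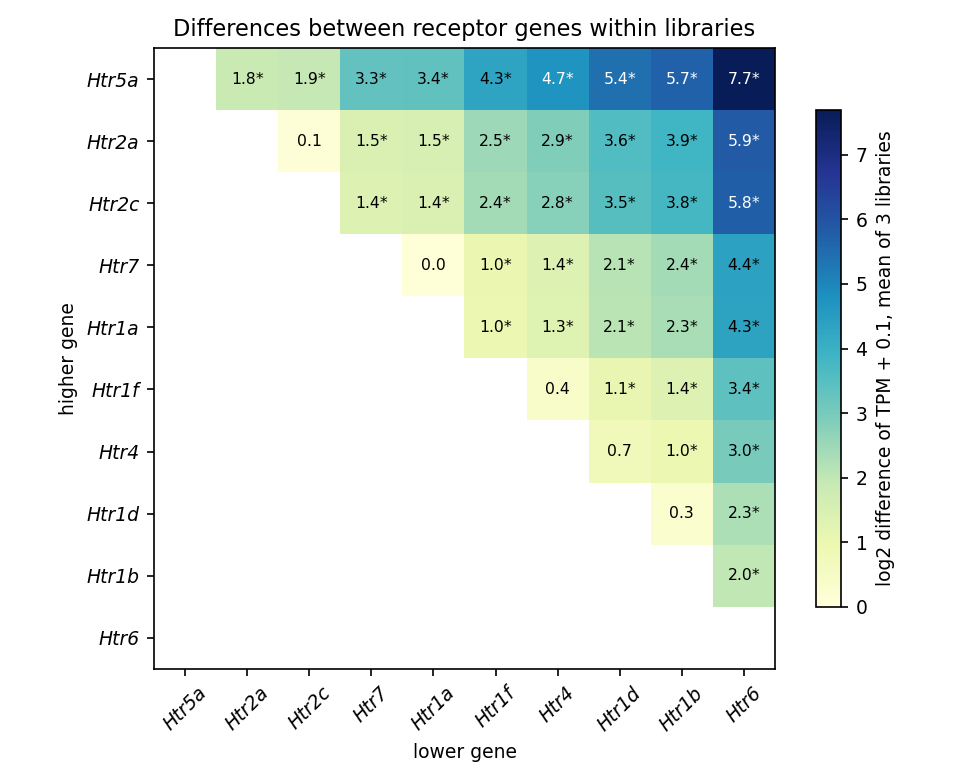
Log2 difference of TPM + 0.1 between each pair of receptor genes, mean of 3 libraries, with the higher gene in the row and the lower in the column. Asterisks mark the 40 of 45 pairs with a limma adjusted p under 0.05. Pale cells without an asterisk lie along the diagonal, where neighbours in the ranking meet.

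Gene length set part of the order. The merged exons of Htr2c cover 9328 bases over 7 annotated transcripts, while its principal transcript has 4883 bases, and Htr2a has 1 transcript of 5606 bases. With the length of the principal transcript, Htr2c stood at 38.9 ± 3.11 TPM and Htr2a at 21.8 ± 1.85 TPM. Htr2a minus Htr2c was then -0.84 on the log2 scale and past the threshold (limma adjusted p = 1.24e-04). It was -0.84 with the longest transcript (adjusted p = 1.23e-04), -0.68 with coding length (adjusted p = 9.64e-04) and -0.64 with no length correction (adjusted p = 0.00140). Htr2a was thus not above Htr2c under any of these. Which transcripts of Htr2c were bound to ribosomes cannot be read from counts per gene.

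The first rank of Htr5a and the last of Htr6 held under each definition of length. The level of Htr5a ranged between 79.1 ± 18.8 TPM with the principal transcript and 141 ± 32.9 TPM with coding length. Htr5a has the same length, 5376 bases, as merged exons and as principal transcript, but TPM is scaled by the lengths of all genes. Coding length placed Htr1a (9.86 ± 3.24 TPM) above Htr7 (7.07 ± 1.19 TPM) and Htr4 (4.59 ± 1.75 TPM) above Htr1f (3.19 ± 0.252 TPM), pairs that did not pass the threshold in either order.

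**Figure D4:**
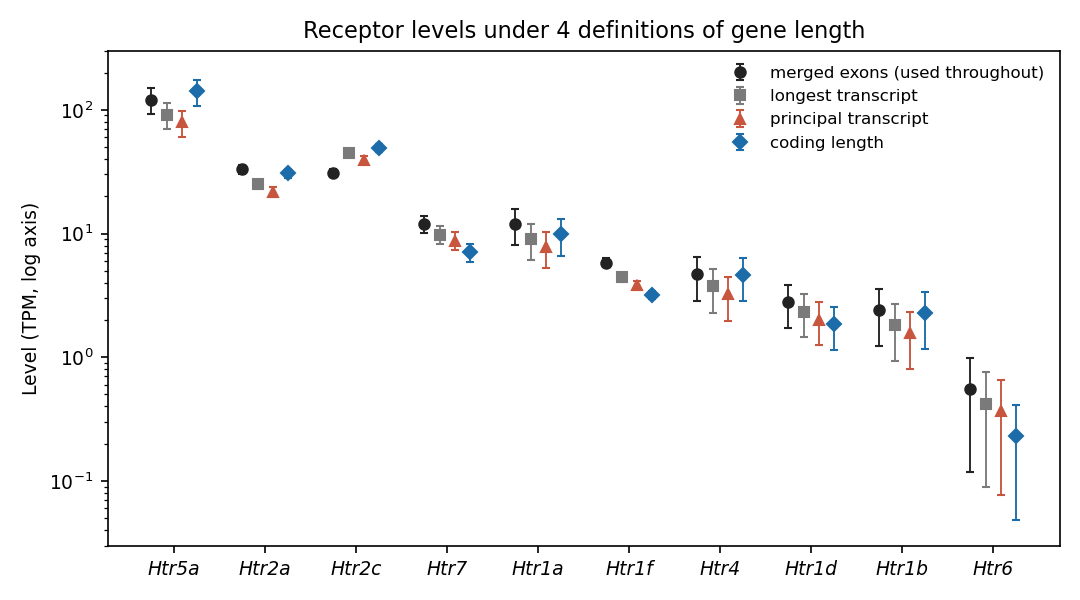
Level of each receptor gene (TPM, log axis) under 4 definitions of gene length, as means with SD bars over 3 libraries. Htr2c lies level with Htr2a with merged exons and above it with the other 3 definitions, while Htr5a stays first and Htr6 last.

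Whether a gene's counts varied between libraries was judged by chi-square from library sizes scaled by edgeR's trimmed mean of M-values (TMM), with p-values adjusted by Benjamini-Hochberg over 12949 genes. Of the 9 receptors with a mean of at least 1 CPM (counts scaled to library size without length), 7 (77.8%) varied beyond counting noise, beside 74.3% of all genes tested. Htr5a had the lowest p of the 9 (chi-square, adjusted p = 5.87e-50), with 166, 113 and 107 TMM-scaled CPM. Htr1a (adjusted p = 1.53e-06), Htr4 (6.19e-05), Htr1b (0.00125), Htr2c (0.00636), Htr2a (0.0104) and Htr1d (0.0489) also passed. Htr7 (0.0986) and Htr1f (0.718) did not.

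Replicate 1 carried much of this. Without it, 3 of the 9 receptors varied, beside 42.5% of all genes, and Htr5a was no longer among those past the threshold (adjusted p = 0.165). Markers of the Htr3a class of interneurons (7 of 7 at 1 TPM or more in 3 of 3 libraries) summed to 3542, 2675 and 2730 TPM in replicates 1, 2 and 3, MGE class markers (5 of 5) to 8931, 8667 and 7905 TPM and oligodendrocyte markers (6 of 6) to 367, 248 and 218 TPM. The sums of these lists were highest in replicate 1, as were Htr5a, Htr2a, Htr2c, Htr1f and Htr4 by TPM. For Htr2c replicates 1 and 3 were close (32.6 and 32.3 TPM), and by CPM replicate 3 was higher (60.2 against 58.3). Astrocyte, endothelial and choroid plexus sums were also highest in replicate 1. GABAergic sums were highest in replicate 2, and microglia and mural sums in replicate 3. For the MGE class the maximum in replicate 1 rested on Sst, at 8729, 8366 and 7646 TPM. Lhx6, Sox6 and Satb1 were highest in replicate 2 and Pvalb in replicate 3. Excitatory markers (9 of 10) summed to 668, 672 and 756 TPM and were highest in replicate 3, as were Htr1a, Htr1b, Htr1d and Htr7, but that maximum rested on Slc17a7 with 158, 170 and 260.4 TPM. Without Slc17a7, a choice made after seeing the data, the sums were 510.03, 502 and 496 TPM. None of the Htr3a class, MGE class, oligodendrocyte and excitatory markers was at 0 counts in all libraries. The part of cell composition in the receptor differences was not tested.

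Htr3a itself, the gene that drives Cre here, marks the scale. Htr5a stood 5.06-fold below it (Htr5a minus Htr3a -2.34 on the log2 scale, SD 0.22, limma adjusted p = 8.21e-12, 3 of 3 libraries), at 154, 107 and 102 TPM for Htr5a and 655, 582 and 569 TPM for Htr3a. Htr2a was 18.1-fold and Htr2c 19.3-fold below Htr3a, and Htr7 and Htr1a were 50.1-fold and 51.9-fold below. Of the 10 receptors 10 were below Htr3a, beside 98.4% of all genes in the fit. These sizes rested on gene length: Htr5a minus Htr3a was -0.97 by CPM and -0.52 with coding length, and with coding length Htr2a was at -2.70, Htr2c at -2.02, Htr7 at -4.81 and Htr1a at -4.37. The direction and the call held for the 10 receptors under each of these. The 10 receptors together reached 225 ± 28.7 TPM. Htr3a was 2.69 ± 0.147 times that sum with merged exons, but 0.986 ± 0.0586 times by CPM and 0.802 ± 0.0538 times with coding length, so whether the receptors together exceeded Htr3a depended on the length used.

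Of the other serotonin receptor genes, Htr3b, a further ionotropic subunit, had 17.8, 9.87 and 16.5 TPM. It stood below Htr2c (log2 Htr3b minus Htr2c -1.12, SD 0.34, limma adjusted p = 8.04e-04) and did not differ from Htr7 beyond the spread (0.26, SD 0.60, adjusted p = 0.393). It stood above Htr1f (1.28, adjusted p = 0.00178), Htr4 (1.66), Htr1d (2.39), Htr1b (2.65) and Htr6 (4.65), each of the last 4 with a lower p by limma. Htr5b, the close relative of Htr5a, had 7, 6 and 14 counts, or 1.31, 1.10 and 2.50 TPM. Htr2b, the remaining Gq/11-coupled receptor, had 0, 4 and 0 counts, and a count of 0 allows up to 0.511 TPM in replicate 1 and 0.487 TPM in replicate 3.

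Set among 38 other G-protein-coupled receptors for transmitters and modulators, Htr5a had rank 5 of 48 by mean TPM. Of that list of 38, 4 genes were above Htr5a and 28 below it by limma's adjusted p, beside 9.41% of all genes in the fit above it. The list was led by the cannabinoid receptor Cnr1 at 737 ± 170.5 TPM. Htr2a had rank 14, Htr2c 16, Htr7 24, Htr1a 25, Htr1f 31, Htr4 33, Htr1d 34, Htr1b 36 and Htr6 41. The serotonin receptors were spread over most of the range of the list. With other lengths or by CPM the rank of Htr5a was between 5 and 7, and 2 to 5 genes of the list were above it. At the bottom of the list, Hrh4, Adora3 and Grm6 had 0 counts in each library.

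The gene of that list closest to each receptor was found by the Euclidean distance of log2(TPM + 0.1) over the 3 libraries. The histamine receptor gene Hrh3 was closest to Htr5a (distance 0.27), with 138, 98.5 and 116 TPM (Hrh3 minus Htr5a -0.03 on the log2 scale, limma adjusted p = 0.858). The glutamate receptor gene Grm7 (31.8 ± 3.37 TPM) was closest to Htr2a (0.18) and to Htr2c (0.28), and Grm2 (11.8 ± 2.77 TPM) to Htr7 (0.17) and to Htr1a (0.19). Grm2, at 8.97, 11.98 and 14.5 TPM, was lowest in replicate 1 and highest in replicate 3, as were both receptors. The muscarinic receptor gene Chrm2 was closest to Htr1f (0.57) and Htr4 (0.996), Drd5 to Htr1d (0.84), Adora2a to Htr1b (1.18) and Drd4 to Htr6 (1.29).

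**Figure D5:**
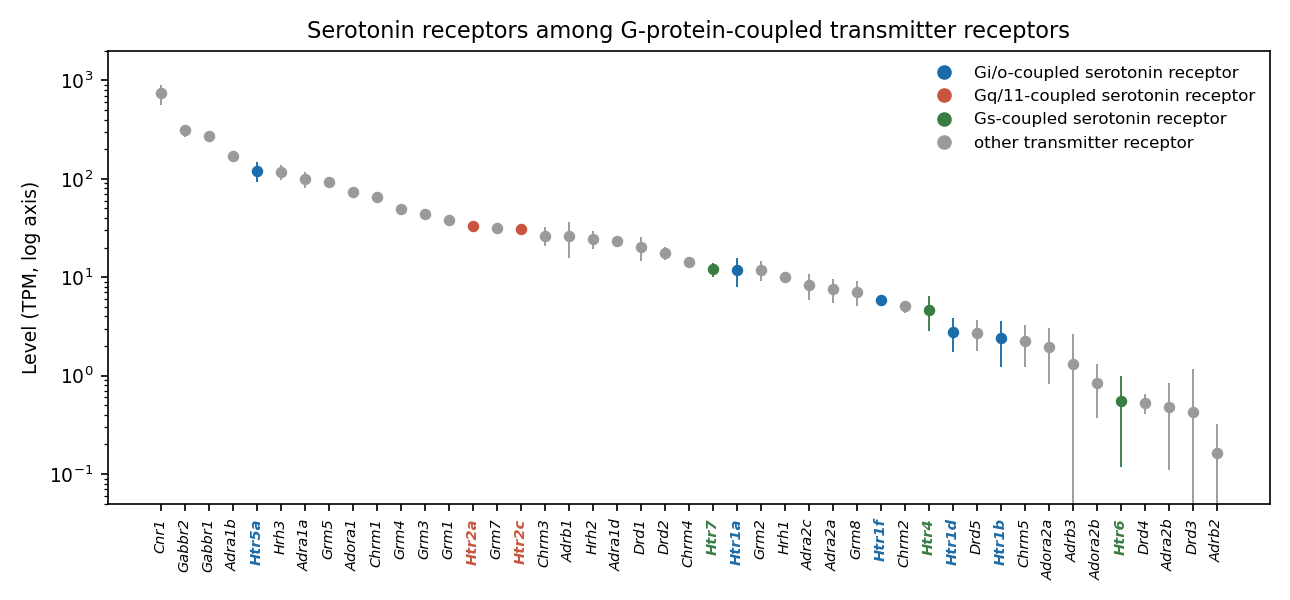
Mean level (TPM, log axis) of the 10 serotonin receptor genes and of the other G-protein-coupled transmitter receptors with counts, ranked, with SD bars over 3 libraries. Coloured points are serotonin receptors by coupling class and grey points the rest. Htr5a has rank 5 of 48, and the 3 genes with 0 counts are not drawn.

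The genes that signal downstream of these receptors spanned a wide range of levels, and each was set against Htr5a by limma's adjusted p in the same fit. Of the Gi/o alpha subunits, 3 of 5 were above Htr5a and 1 below, ranging from Gnai1 at 2055 ± 199.8 TPM to Gnai3 at 51.5 ± 9.03 TPM. Of the Gq/11 alpha subunits, 1 of 3 was above Htr5a and 1 below, with Gnaq at 355 ± 19.5 TPM highest and Gna14 at 0.959 ± 0.619 TPM lowest. Both Gs alpha subunits, Gnas at 1342 ± 68.3 TPM and Gnal at 390.0 ± 62.4 TPM, were above Htr5a. Each class of receptor thus had at least 1 alpha subunit above its own highest receptor.

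Of the effectors, 1 of 9 adenylyl cyclases was above Htr5a and 7 were below, from Adcy1 at 282 ± 23.9 TPM to Adcy4 at 0.253 ± 0.219 TPM. Of the phospholipases C beta, 1 of 4 was above and 2 were below, with Plcb1 at 254 ± 34.4 TPM and Plcb3 at 0.731 ± 0.0851 TPM at the ends. Of the inwardly rectifying potassium channel subunits that Gi/o receptors open, 1 of 4 was above and 3 were below, from Kcnj3 at 181 ± 20.6 TPM to Kcnj5 at 1.15 ± 0.739 TPM. A list of receptor partners, not all of them known for serotonin receptors, had 0 of 6 above Htr5a and 4 below. It ran from the arrestin Arrb1 at 133 ± 12.01 TPM to Jakmip1 at 13.2 ± 3.48 TPM. These counts moved with gene length: coding length left 2 of 5 Gi/o alpha subunits and 0 of 4 channel subunits above Htr5a, and CPM put 2 of 4 phospholipases and 2 of 6 listed partners above it.

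Genes for making, carrying and breaking down serotonin were all below or not tested against Htr5a, with 0 of 9 above and 7 below. Maoa, the monoamine oxidase that degrades serotonin, was highest at 29.6 ± 3.37 TPM, close to Htr2a and Htr2c. Slc6a4, the serotonin transporter of serotonergic neurons, had 0 counts in each library. Tph2, the neuronal enzyme that starts serotonin synthesis, had 14, 9 and 22 counts (1.84 ± 0.770 TPM), a mean below those of Htr1d and Htr1b, with no test.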

How the data were processed

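The deposited files hold raw read counts per gene symbol, 1 file per library, not normalized by the authors. The submitters' processing notes name STAR 2.0.0e, HTSeq and mm10 without their roles; the annotation, counting mode and strand setting were not given in the sources used here. Lines that name no gene (6 per file, 25.5%, 25.1% and 28.8% of records) were left out. TPM and CPM were computed here from the counts with merged exon lengths of GENCODE M21 (GRCm38, which mm10 denotes). A length was found for 23161 symbols directly and for 736 by an older name, together 94.7% to 97.1% of the counts, and 8634 had none. Where the exon model is longer than the transcripts present, TPM is too low.

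Differences of log2(TPM + 0.1) within libraries were tested two-sided with limma 3.58.1 (intercept only, trended moderation) for genes with at least 10 counts in total. Such differences are understated for genes near 0. Moderation lowered the p-values: without it (ordinary t-test) the adjusted p of Htr5a minus Htr2a was 0.0161, against 1.14e-08 by limma with it. Variation used a chi-square test with TMM factors from edgeR 4.0.16 at a mean of at least 1 CPM. DESeq2 1.42.0 size factors served as an alternative. Benjamini-Hochberg adjustment ran over the whole of each table. Other lengths, filters, pseudocounts and left-out replicates were also tried. Overlaps were found with bedtools 2.31.1, and proteins aligned with Biopython 1.88. Scripts ran in Python 3.11.15 (matplotlib 3.10.9, NumPy 2.4.6, pandas 2.3.3) and R 4.3.3.

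The receptors, the pathway and marker lists and the tests were chosen with earlier results of these data known. Named beside the receptors are the other serotonin receptor genes, the highest and lowest gene of each pathway list, the transmitter receptor closest to each receptor and single genes on which a result turns. Slc6a4, Tph2, the choroid plexus markers and the listed genes with 0 counts were named after their values were seen.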

Additional observations from a re-analysis of the deposited data

How the results depend on the processing

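The count of receptor pairs past the threshold was 40 of 45 and ran from 28 without moderation to 41 with transcript lengths, with 34 to 35 when a replicate was left out. A minimum of 1 CPM gave 30 of 36 pairs, since Htr6 dropped out. The call that Htr5a exceeds each other receptor held in every alternative in which the pair could be fitted. Gi/o minus Gq/11 class sums (log2 1.15) were 0.62 by CPM, 0.63 with longest and with principal transcripts, 0.98 with coding length, 2.20 without Htr2a, -1.51 without Htr5a and -2.46 by median. Gi/o minus Gs (3.05) was 3.49 by CPM, 3.72 with coding length, 0.39 without Htr5a, 0.38 by median and 4.83 without Htr7. Gq/11 minus Gs (1.90) was 2.87 by CPM, 2.33 with longest and 2.29 with principal transcripts, 2.74 with coding length, 2.85 by median, 0.85 without Htr2a and 3.68 without Htr7. Among neighbours, Htr2a minus Htr2c (0.09) turned to -0.64 by CPM, -0.84 with longest and with principal transcripts and -0.68 with coding length. Htr7 minus Htr1a (0.05) turned to -0.35 by CPM, -0.43 with coding length and, leaving out a replicate, ran from -0.057 (without replicate 1) to 0.18. Htr1f minus Htr4 (0.38) turned to -0.53 by CPM and -0.45 with coding length, and Htr1d minus Htr1b (0.26) to -0.28 by CPM, -0.24 with coding length and, leaving out a replicate, a range from -0.29 (without replicate 2) to 0.68. The number of receptors varying between libraries was 7 of 9, beside 74.3% of all genes tested. Under other scalings and filters it was 6 to 7, beside 59.3% to 75.1% of all genes. Without the filter on counts 10 receptors were tested, and 9 otherwise. With a replicate left out it was 3 to 6 of 9, beside 42.5% to 62.2% of all genes. The CPM, transcript and coding values differ by construction in the lengths used and in the scaling over genes that follows from them. Coding length also leaves out genes without a coding sequence. For the other changes the cause was not tested.

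No paired analysis was possible because there is 1 group. Depth limits Htr6, Htr1b and Htr1d most, with 2 to 48 counts per library, and the pair calls lost when a replicate was left out were among Htr7, Htr1a, Htr1f, Htr4, Htr1d, Htr1b and Htr6.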
